A study of Mus musculus with 10 samples.

Results

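Cadherins and protocadherins are calcium-dependent adhesion proteins of the cell surface. Classical cadherins join neighbouring cells at adherens junctions and bind catenins inside the cell, which link them to actin. The type I proteins among them, such as P-cadherin (Cdh3) and R-cadherin (Cdh4), and the type II proteins, such as VE-cadherin (Cdh5), differ in their adhesive ectodomain. Protocadherins are the larger branch of the superfamily. The clustered ones are made from tandem alpha, beta and gamma gene arrays and give neurons their surface identity, while the solitary ones (delta-1 and delta-2 groups, and a few others) lie alone in the genome. Gastrulation, in which the epiblast gives rise to definitive endoderm, is known for changes in which cadherins cells carry.

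The genes described here were those that the authors' nearest-gene column gave to at least 1 OTX2 peak in either of the 2 cell states, and whose symbol was a numbered Cdh or Pcdh or a member of the Pcdha, Pcdhb or Pcdhg arrays. Cdh1 and Cdh2 were left out by this rule. It gave 29 of the 19974 gene names in either list, and 29 of the 91 genes of these families in the RefSeq gene table. Of the 29, 13 were classical cadherins (of 16 in the table), 5 other numbered cadherins (of 5), 9 solitary protocadherins (of 12) and 2 clustered protocadherins (of 58). Because the rule itself asks for a named peak, all 91 family genes, including those with no peak, were used as the denominator below.

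OTX2, a homeodomain transcription factor, was mapped by CUT&RUN, in which an antibody directs a nuclease to its target in permeabilised cells and the released DNA is sequenced. The tagged mouse line, 7H OTX2-dTAG-EGFP (BL6/129 hybrid), was profiled with anti-HA in epiblast stem cells (EpiSCs, 2 samples) and in definitive endoderm (DE, 2 samples). The medium of the EpiSCs held FGF2 (12.5 ng/ml), NVP (175 nM) and Activin A (20 ng/ml). Their conversion to DE took 16 h in CHIR (3 µM) with Activin A at 40 ng/ml, then 24 h in LDN (100 nM) with Activin A at 100 ng/ml, after which living cells were sorted. Controls were IgG in tagged EpiSCs (3 samples) and tagged DE (1 sample), and both HA and IgG (1 sample each) in DE of parental cells without the tag. Each of the 10 samples had 500000 cells. The authors pooled the HA samples of a state into 1 list of peak positions, with 6319 peaks in EpiSC and 42711 in DE, a ratio of 6.76. These lists hold no score or height, depth is unknown, and no replicate spread can be had, so no difference below has a test. A difference between states cannot be told apart from a difference in depth or peak calling. All intervals are 95% intervals, exact Poisson for counts, Wilson for shares and exact binomial for DE to EpiSC ratios, and cover counting error only.

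The promoters below are shown first because they were the promoter windows of the families, among those with a RefSeq sequence, that a peak overlapped. Each is the 250 bases before the transcript start of a delta-2 protocadherin, 5′ to 3′ on the gene's strand, from RefSeq's promoter table (GRCm38.p6). Capitals mark the bases under the DE peak. The windows are chr3:45378148-45378397 (plus strand) for Pcdh10, chr14:84443313-84443562 (plus strand) for Pcdh17 and chr14:79771313-79771562 (minus strand) for Pcdh8.
Pcdh10: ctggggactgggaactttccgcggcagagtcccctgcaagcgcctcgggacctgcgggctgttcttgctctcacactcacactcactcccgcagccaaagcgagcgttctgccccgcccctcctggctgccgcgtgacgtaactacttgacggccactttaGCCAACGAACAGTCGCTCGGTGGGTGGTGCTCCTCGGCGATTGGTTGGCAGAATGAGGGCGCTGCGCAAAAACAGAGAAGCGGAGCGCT
Pcdh17: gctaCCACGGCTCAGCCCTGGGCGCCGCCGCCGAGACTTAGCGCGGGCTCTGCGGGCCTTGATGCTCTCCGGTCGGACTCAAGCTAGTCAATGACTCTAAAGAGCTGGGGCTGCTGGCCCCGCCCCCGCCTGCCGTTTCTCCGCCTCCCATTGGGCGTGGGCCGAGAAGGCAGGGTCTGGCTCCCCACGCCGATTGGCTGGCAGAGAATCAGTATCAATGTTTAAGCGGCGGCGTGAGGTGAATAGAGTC
Pcdh8: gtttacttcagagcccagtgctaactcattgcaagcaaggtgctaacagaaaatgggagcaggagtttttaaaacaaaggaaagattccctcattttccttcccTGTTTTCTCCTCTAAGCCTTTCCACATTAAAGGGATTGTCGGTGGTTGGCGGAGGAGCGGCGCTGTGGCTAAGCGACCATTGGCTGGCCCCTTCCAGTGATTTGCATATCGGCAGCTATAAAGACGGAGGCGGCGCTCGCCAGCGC
All 3 belong to genes of the delta-2 group, whose proteins mediate weak homophilic adhesion and are known mostly from the developing brain and the paraxial mesoderm. The Pcdh17 peak was 254 bp wide (chr14:84443317-84443570) and covered 246 of the 250 bases shown. The Pcdh8 peak was 161 bp wide (chr14:79771298-79771458) and the Pcdh10 peak 118 bp (chr3:45378309-45378426). The centres of the peaks lay 120, 66 and 31 bases from the transcript start, in that order. None of the 3 overlapped an EpiSC peak.

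RefSeq promoter windows (300 bases, from 250 before to 50 after a start) were matched for 22 of the 91 family genes, 25 windows in all. None of the windows of chromosome 18, where the clustered genes lie, was in the table used here. A DE peak overlapped 3 of the 25 windows (12.0%), against 18.3% of all 32851 windows. By group these were 3 of 10 windows of solitary protocadherins, 0 of 13 of classical cadherins and 0 of 2 of other numbered cadherins. The windows cover only 9 of 12, 11 of 16 and 2 of 5 genes of these groups. Cdh3, with a DE peak across its left end, had no window and could not be counted. No family window was overlapped by an EpiSC peak, against 6.33% of all windows. The motif TAATCC, the usual core of OTX2 sites, was searched on both strands (TAATCC or GGATTA) and was not in any of the 3 windows shown. It was in 7.06% of all windows and in 7.98% of those that a DE peak overlapped. Over the families, it was in 1 of 13 windows of classical cadherins, 1 of 2 of other numbered cadherins and 0 of 10 of solitary protocadherins. The shorter TAATC (or GATTA) was in 3, 1 and 0 of these windows, in 22.0% of all windows and in 18.3% of those with a DE peak. The share of G and C in the 3 windows was 62.3% for Pcdh10, 65.0% for Pcdh17 and 54.3% for Pcdh8, against medians of 60.7% over windows with a DE peak and 50.7% over those without.

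In the lists by name, most of these genes appeared in DE alone. Of the 29 genes, 24 were named in the DE list only and 5 in both lists, and no gene in the EpiSC list only. The 82.8% named in DE only stands against 69.8% of the protein-coding genes named in either list, which is the background set by the longer DE list. Over the whole family, 29 of 91 genes were named in DE (31.9%), against 52.3% of protein-coding genes, and 5 of 91 in EpiSC (5.49%), against 16.0%. The low family shares come from the clustered genes, since 27 of the other 33 genes were named in DE. Peaks named to the 29 genes numbered 6 in EpiSC and 88 in DE, a ratio of 14.7 (6.48 to 41.0), where the ratio over all peaks was 6.76 (6.58 to 6.94). Peaks lying inside a family gene body, whatever gene they were named to, numbered 8 and 113, a ratio of 14.1 (6.93 to 33.5). Long genes have a higher ratio in general. In the bodies of the 33 genes outside the arrays it was 15.3 (7.17 to 38.9), against 10.3 at the densities of the same length classes and 10.9 in 100 finer classes, both inside the interval. The lower ends of these intervals, 6.48 and 6.93, are close to the overall ratio, and that for named peaks takes it in, so an excess in DE over the lists as a whole is uncertain with 6 and 8 EpiSC peaks.

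**Figure D1:**
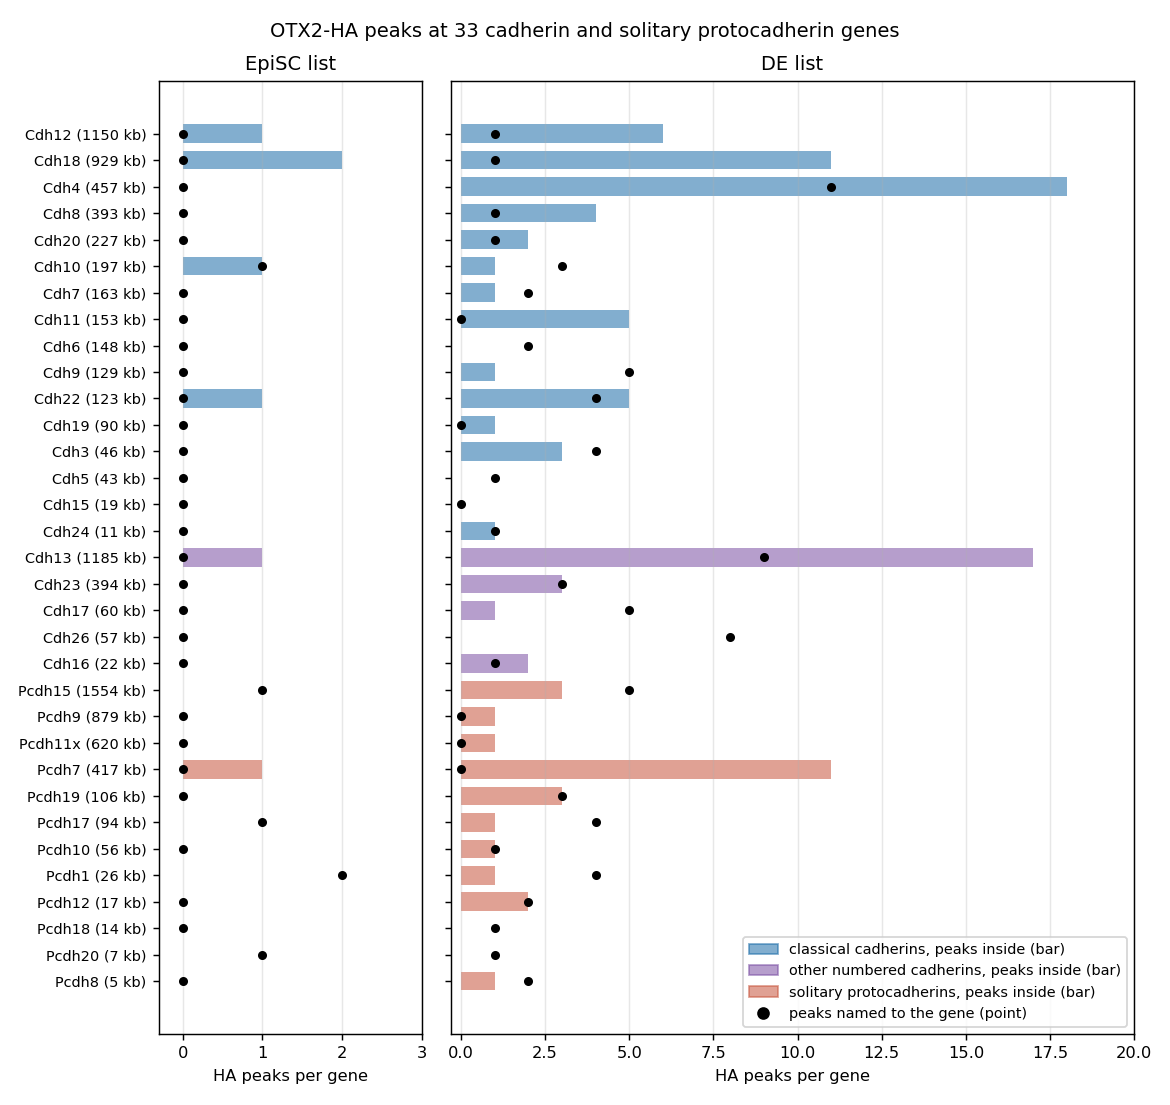
Peaks of the EpiSC list (left) and the DE list (right) at the 33 family genes outside the clustered arrays, with gene length in kb beside each symbol. Bars count peaks inside the gene body and points count peaks named to the gene by the authors; Cdh4 has the longest bar with 18 DE peaks, Cdh26 has 8 named DE peaks and none inside, and no gene exceeds 2 EpiSC peaks.

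Naming and position differed often for these genes. Of the 113 DE peaks inside family bodies, 65 (57.5%) were named to another gene, against 28.9% for peaks inside protein-coding genes in general and 42.1% in the longest of 10 length classes. In EpiSC this held for 7 of 8 peaks, against 22.4% and 40.6%. Conversely, 40 of the 88 named DE peaks (45.5%) lay outside any family body, 19 of the 88 lay more than 50 kb from their gene and 15 more than 100 kb, with Cdh10 named at up to 404 kb. Both counts are therefore given for each gene, "named" for the authors' name and "inside" for an overlap of at least 1 bp with the gene body.

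The classical cadherins are long genes, with a median of 151 kb and 4277 kb in all. Of the 16, 13 had a DE peak inside and 4 an EpiSC peak inside. Over all protein-coding genes the shares with a peak inside were 43.4% in DE and 12.0% in EpiSC, but at the length of these 16 genes they were 76.9% and 23.1%, equal to 12.3 and 3.70 genes. So the number of classical cadherins with a peak inside was near that of other genes as long. By name, 13 were given a DE peak and 1 an EpiSC peak, where genes of their length give 11.8 and 3.48 of 16. They held 59 DE peaks inside, 1.38 per 100 kb (1.05 to 1.78). Bodies of the same length classes would hold 73.7 at their mean density, or 67.2 in 100 finer classes. In EpiSC the classical cadherins held 5 peaks, 0.117 per 100 kb (0.0380 to 0.273), against 7.00 at that density, or 6.30 in the finer classes. All protein-coding bodies together had 2.13 DE peaks and 0.299 EpiSC peaks per 100 kb.

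Among the type I genes, Cdh4, which encodes R-cadherin, had the most DE peaks of the family, 11 named and 18 inside its 457 kb (chr2:179442423-179899377), and none in EpiSC. Among the 238 protein-coding genes of 0.8 to 1.25 times its length, 5.88% had as many DE peaks inside, and the median was 6. Its 18 peaks ran from 92.9 to 453 kb from the left end of the gene, 7 in the left 50% and 11 in the right, and the widest was 493 bp. The 7 peaks not named to Cdh4 were all named to Gm14300. Cdh3, which encodes P-cadherin of epithelia and lies beside Cdh1, had 4 named DE peaks and 3 inside its 46.1 kb, 6.51 per 100 kb, the highest density among the 18 named numbered cadherins with at least 3 peaks inside (Cdh1 and Cdh2 are not among them). Of genes of like length, 12.1% had as many. One of the 3, at chr8:106510755-106510909 (155 bp), lay across the left end of Cdh3, and the others lay further in, at chr8:106518563-106518729 and chr8:106518895-106519025. The third gene of the type, the muscle cadherin Cdh15, had no peak named or inside in either state.

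The 13 type II genes had 22 named DE peaks and 1 EpiSC peak. Cdh9 had 5 named DE peaks, of which 1 lay inside the gene and 4 lay 101 to 302 kb to its left. The widest of these was 282 bp (chr15:16426813-16427094). Cdh22 had 4 named DE peaks and 5 inside, with 2 counted under both, and 1 EpiSC peak inside that was named to Gm14397. The EpiSC peak (chr2:165162395-165162479) did not overlap a DE peak. Of the numbered cadherins considered here, without Cdh1, Cdh10 alone was named in EpiSC. Its EpiSC peak (chr15:18821529-18821614, 86 bp) overlapped a DE peak of 104 bp (chr15:18821513-18821616), centred 1.24 kb from a transcript start, and its other DE peaks lay 107 and 404 kb to the right of the gene.

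Further type II genes, Cdh18, Cdh12 and Cdh11, were singled out after their values were seen, because the names hid their peaks. Cdh18 had 1 named DE peak but 11 inside its 929 kb, and 2 EpiSC peaks inside with no name to it. Both EpiSC peaks overlapped DE peaks, and the one at chr15:22761251-22761671 was 421 bp wide, the widest EpiSC peak inside any family gene. Cdh12 had 1 named DE peak and 6 inside its 1150 kb, with 1 EpiSC peak that had no DE counterpart. Cdh18 and Cdh12 were near other genes of their length, whose medians were 9 and 9.5 DE peaks. Cdh11, the mesenchymal OB-cadherin, was named in neither list, yet 5 DE peaks lay inside its 153 kb. These 5 fell between positions 102696817 and 102707660 of chromosome 8 and were all named to RP24-424D1.4, and 27.5% of genes of its length had as many. Cdh19, also named in neither list, had 1 DE peak inside. The other type II genes, Cdh5, Cdh6, Cdh7, Cdh8, Cdh20 and Cdh24, had 1 or 2 named DE peaks each and no EpiSC peak. VE-cadherin (Cdh5) and K-cadherin (Cdh6) had none of theirs inside the gene.

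The 5 other numbered cadherins were all named in DE and none in EpiSC, where genes of their length give 3.50 and 1.03 of 5. They had 26 named DE peaks and 23 inside, 1.34 per 100 kb (0.849 to 2.01), against 30 at the density of their length classes. In 100 finer classes the latter was 23.6, near the count inside. T-cadherin (Cdh13), which is held by a lipid anchor and has no cytoplasmic tail, had 9 named DE peaks and 17 inside its 1185 kb, and 25% of genes of like length had as many. Of its 17 peaks, 15 lay in the left 50% of the gene. Its single EpiSC peak inside (chr8:118845841-118845919, 79 bp) overlapped a DE peak and was named to Gm22999. Cdh26 had 8 named DE peaks, and none was inside. All 8 lay to the right of the gene, at 20.2 kb and then at 98.3 to 175 kb, so the next count by name after Cdh4 and Cdh13 rests on distant peaks. Cdh17, the liver-intestine cadherin of the gut lining, had 5 named DE peaks, 1 inside (chr4:11763066-11763153) and 4 that lay 20.0 to 25.7 kb to its left. Cdh23, a tip-link protein of hair cells, had 3 named and 3 inside, and the kidney cadherin Cdh16 had 1 named and 2 inside.

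**Figure D2:**
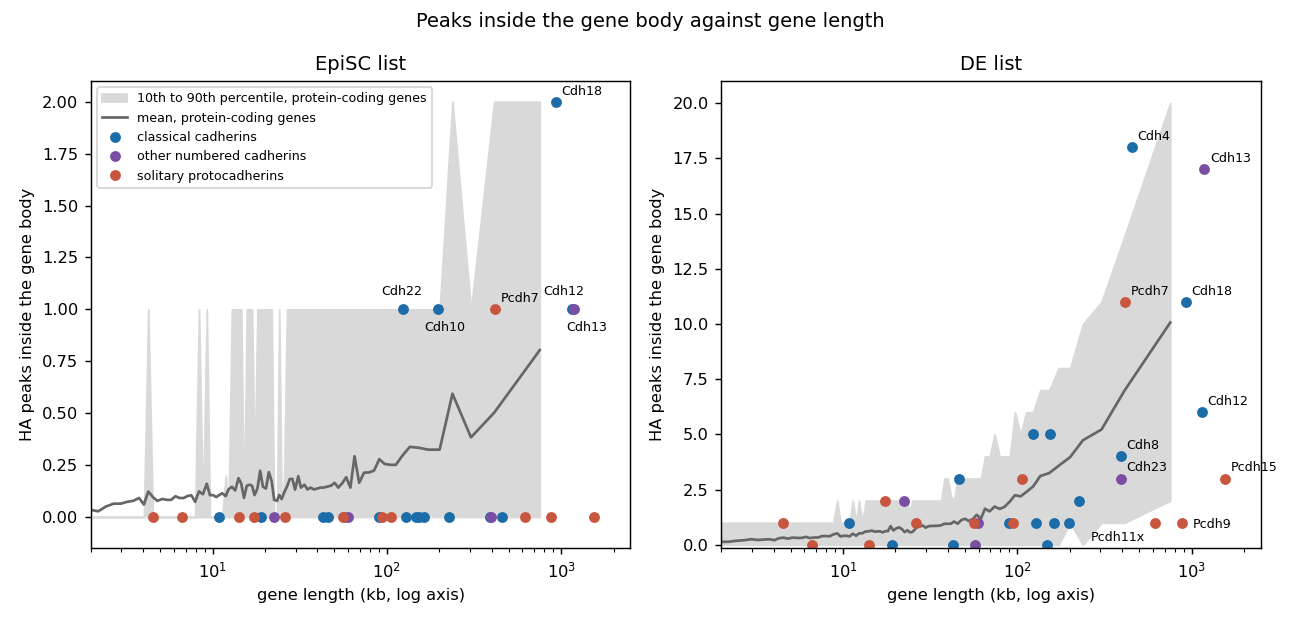
Peaks inside the gene body against gene length (log axis) for the EpiSC list (left) and the DE list (right); coloured points are the 33 family genes outside the arrays. The grey line and band are the mean and the 10th to 90th percentile of protein-coding genes in 100 classes of length; in DE, Cdh4 with 18 peaks lies above the band, and Pcdh9 and Pcdh11x have 1 peak each, under the 10th percentile of 2 in the longest class.

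Solitary protocadherins held a DE peak at least as often as genes of their length. As a group they held fewer DE peaks per length. The 12 genes had a median of 75.1 kb and covered 3795 kb. A DE peak lay inside 10 of them, against 61.6% of genes of the same length (7.40 genes), and an EpiSC peak inside 1, against 17.7% (2.12 genes). They held 25 DE peaks inside, 0.659 per 100 kb (0.426 to 0.972), where the mean density of their length classes gives 66.7. In 100 finer length classes the latter was 50.8. By name they had 23 DE peaks, and 5 EpiSC peaks at 4 of the 12 genes, against 19.7% of genes of their length (2.36 genes). None of the 5 lay inside its gene and 3 lay beyond 50 kb, so within 50 kb there were 2 peaks at 1 gene (8.33%). The background counts names at any distance, so this smaller count cannot be set against it.

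Pcdh9, Pcdh11x and Pcdh15 together had 5 DE peaks in 3.05 Mb, and the other 9 solitary genes 20 in 742 kb, or 0.164 and 2.69 per 100 kb, on either side of the 1.38 of the classical cadherins. At the density of their length classes the counts would be 51.5 and 15.2, and in 100 finer classes 35.6 and 15.1. The 3 genes were chosen for their low values, which sets the direction of this split, so it is a description only. Pcdh9 had 1 DE peak in 879 kb, and 9.09% of the 77 genes of like length had as few, with a median of 9. Pcdh11x, on chromosome X, had 1 in 620 kb, and 13.6% of 125 genes had as few, with a median of 7. Pcdh15, the tip-link partner of Cdh23 and the longest family gene at 1554 kb, had 3 in its body, and 25% of 20 genes had as few. In contrast Pcdh7 had 11 DE peaks and 1 EpiSC peak inside its 417 kb, which 21.2% of like genes matched in DE, although no peak in either list was named to it. Its EpiSC peak (chr5:57733549-57733785, 237 bp) overlapped a DE peak. Pcdh7, Pcdh9, Pcdh11x and Pcdh1 make up the delta-1 group, so within it the DE peaks inside ranged from 1 to 11.

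**Figure D3:**
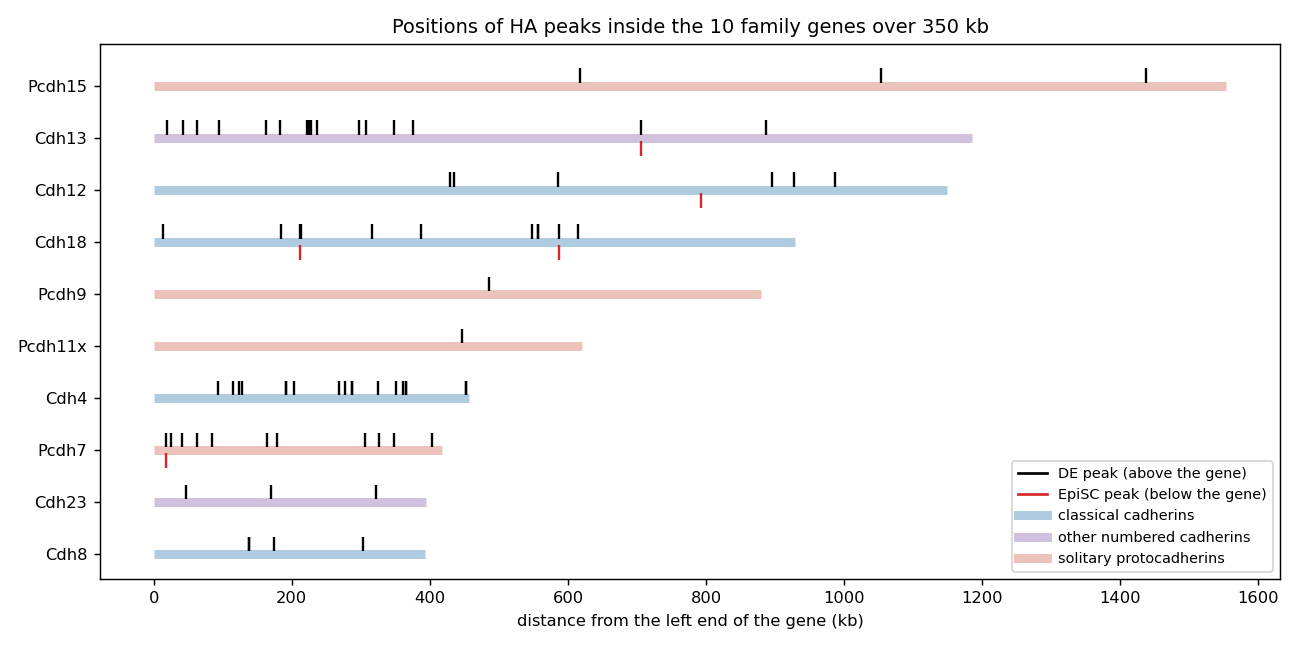
Positions of DE peaks (black, above) and EpiSC peaks (red, below) along the 10 family genes longer than 350 kb, in kb from the left end of the gene. Cdh4, Pcdh7 and Cdh18 hold 18, 11 and 11 DE peaks, 15 of the 17 peaks of Cdh13 lie in its left 50%, and Pcdh9 and Pcdh11x hold 1 each.

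Among the solitary genes with the most named DE peaks, Pcdh15 had 5, of which 2 lay inside. Its widest lay 56.2 kb to the left of the gene (chr10:73039618-73040029) and, at 412 bp, was the widest DE peak named to any of the 29 genes. It contained the EpiSC peak of Pcdh15 (chr10:73039721-73039862, 142 bp). Pcdh1, an epithelial and endothelial protocadherin, had 4 named DE peaks and 2 EpiSC peaks, all outside its 26.1 kb body, and 1 DE peak inside that was named to 2010320O07Rik. The nearest named peak lay 598 bp to the left of the gene (chr18:38185102-38185316). The first EpiSC peak (chr18:38144845-38144971, 127 bp) overlapped a DE peak, and the second (chr18:38148850-38149150) did not and, at 301 bp, was the widest EpiSC peak named to the 29 genes. With 1 DE peak inside, Pcdh1 had 3.83 per 100 kb of its body. Pcdh12, an endothelial protocadherin also on chromosome 18, had 2 DE peaks, both inside its 17.3 kb and 81 and 92 bp wide, and none in EpiSC.

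The 5 delta-2 genes had 11 named DE peaks and 1 EpiSC peak, and all 5 were named in DE. Pcdh17 had 4, among them the promoter peak shown above and one of 378 bp at 195 kb to its left (chr14:84247967-84248344), which contained the EpiSC peak named to Pcdh17 (chr14:84248083-84248242, 160 bp). The peak at the promoter of Pcdh17 was thus in the DE list alone, whereas the distant one was in both lists. Pcdh19, on chromosome X, had 3 DE peaks, all inside its 106 kb and 174 to 197 bp wide, and 35.6% of genes of like length had as many. Pcdh8 had its promoter peak and one 2.99 kb to the right of the gene, and Pcdh10 its promoter peak alone. Pcdh18 had 1 DE peak, 9.13 kb from the gene. Pcdh20, outside the delta groups here, had 1 peak in each list, at different places. The EpiSC peak (chr14:88413896-88414144, 249 bp) lay 50.6 kb to its left and the DE peak 14.3 kb to its right.

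The clustered protocadherins were seldom named. The alpha, beta and gamma arrays span chr18:36930285-37841873, 912 kb, and held 1 EpiSC peak and 7 DE peaks, 0.768 DE peaks per 100 kb (0.309 to 1.58), gaps between genes included. In their gene bodies alone the density was 1.17 (0.428 to 2.54), an interval that takes in the 2.03 of all protein-coding bodies of chromosome 18. The alpha array (14 genes, 259 kb) held 1 DE peak of 67 bp, and the beta array (22 genes, 256 kb) none in either list. A limit of 3 counts allows the beta array up to 1.17 per 100 kb. The gamma array (22 genes, 180 kb) held 5 in DE and 1 in EpiSC. The remaining DE peak lay between the beta and gamma arrays. The 5 gamma peaks lay in the right part of the array, between positions 37806321 and 37840990, on the side that holds the exons common to its transcripts. By name only Pcdhgc3 (chr18:37806321-37806403) and Pcdhga8 (chr18:37814389-37814474) had a DE peak, so 56 of the 58 genes had none, where genes of their length give 61.3% with a named peak. Array genes overlap each other, and the 6 DE peaks inside their bodies fell inside 36 of the 58 genes (62.1%, and 56.5% at their length), so a single peak cannot be given to 1 gene. The last gamma peak (chr18:37840758-37840990, 233 bp) overlapped the EpiSC peak (chr18:37840684-37840953, 270 bp), and both were named to other genes.

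**Figure D4:**
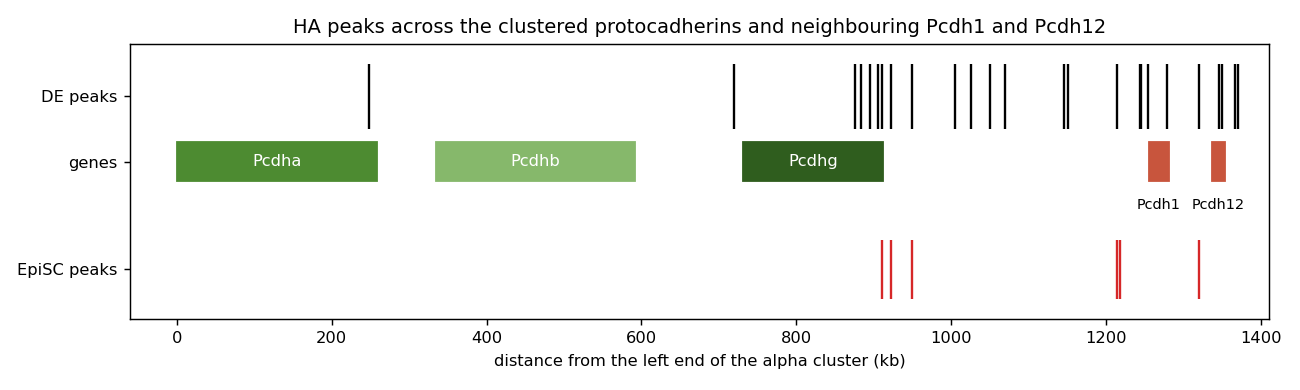
DE peaks (black, top) and EpiSC peaks (red, bottom) from the alpha array to Pcdh12, in kb from the left end of the alpha array; boxes mark the 3 arrays and the solitary genes Pcdh1 and Pcdh12. The alpha array has 1 DE peak, the beta array none and the gamma array 5, all in its right part.

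Peaks were also counted with the space around the genes, whatever gene they were named to. When each gene was given its body plus 50% of the gaps to its neighbouring protein-coding genes, the classical cadherins had 0.548 DE peaks of any name per 100 kb (0.459 to 0.650), and the solitary protocadherins 0.385 (0.311 to 0.472), both below the 1.59 over protein-coding genes. The other numbered cadherins, with 1.62 (1.16 to 2.21), and the clustered genes, with 1.04 (0.380 to 2.25), had intervals that take in that value. Isolated genes were sparse in general, and the 352 protein-coding genes with more than 1000 kb of such space had 0.634 (0.614 to 0.655). The 19 family genes with as much space had 0.408 (0.352 to 0.470), below that range. Their median space was larger, 2347 kb against 1423 kb for the 352 genes, which include them. The groups are therefore not matched on space. In EpiSC the densities of the 352 and the 19 genes were 0.0636 and 0.0384.

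**Figure D5:**
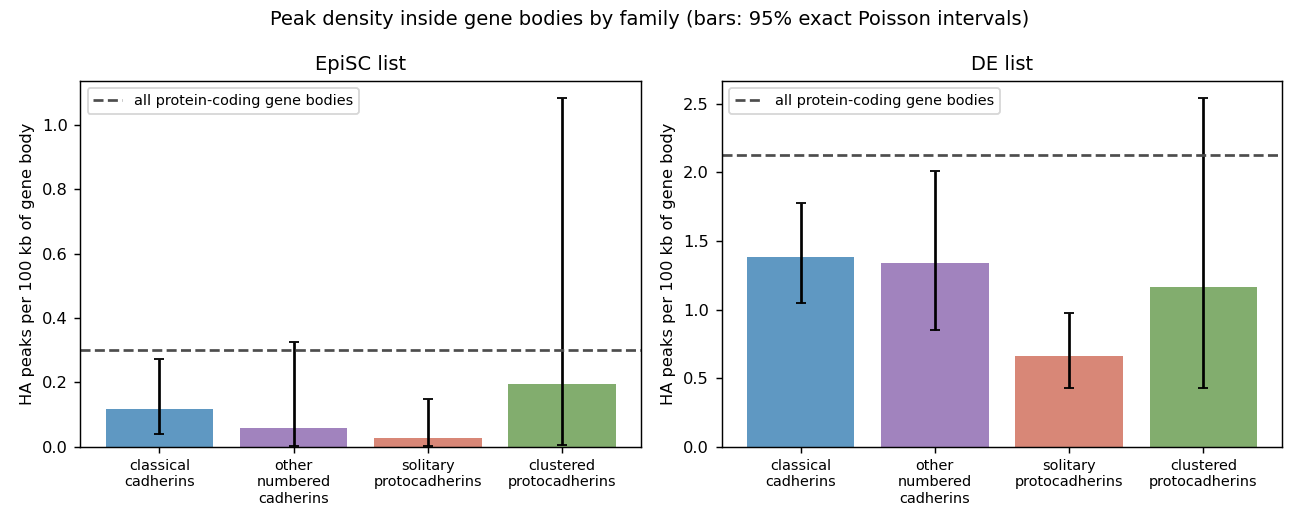
Peaks per 100 kb of gene body by family in the EpiSC list (left) and the DE list (right), with exact 95% Poisson intervals; the dashed line is the density over all protein-coding gene bodies. In DE, the solitary protocadherins have 0.659, the classical cadherins 1.38 and all protein-coding bodies 2.13.

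Few DE sites at these genes were also EpiSC sites. Of the 88 DE peaks named to the 29 genes, 4 overlapped an EpiSC peak (4.55%, 1.78 to 11.1), against 11.7% of all DE peaks, and of the 113 inside family bodies 6 did (5.31%, 2.46 to 11.1). The 11.7% is not matched on gene length, and a share for genes of like length was not computed. In the other direction, 4 of the 6 named EpiSC peaks overlapped a DE peak (66.7%, 30 to 90.3), against 78.8% of all EpiSC peaks. The 4 shared sites were at Cdh10, Pcdh1, Pcdh15 and Pcdh17, and 3 of them lay outside the gene. DE peaks named to the 29 genes had a median width of 118 bp, against 138 bp over the list, and the EpiSC ones 151 bp against 141 bp. None of the 6 EpiSC and 88 DE peaks overlapped a peak of the EpiSC IgG lists (149 to 202 peaks) or of the parental HA list (14 peaks). Over all peaks such an overlap was seen for 0.791% in EpiSC and 0.0819% in DE.

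In a list of 40 companion genes, the binding partners and relatives of these proteins, 24 had a DE peak inside and 10 an EpiSC peak. At their lengths, the protein-coding background gives 25.9 and 7.11 genes. By role, a DE peak lay inside 12 of 14 catenins and junction partners (10.1 at that background), 11 of 17 genes of the Fat, Dachsous, Celsr, Cdhr and calsyntenin families (11.0) and 1 of 9 desmosomal cadherins (4.79). Differences between these groups were not tested. The companions with most named DE peaks were Celsr1, with 10, and Ctnna1, Ctnnd1, Fat1 and Fat3, with 6 each. Celsr1, a planar polarity cadherin, had 11 DE peaks inside and none in EpiSC. The giant cadherins Fat1 and Fat3 had 8 DE peaks inside each, with 2 and 1 in EpiSC. The catenin genes Ctnnd1 and Ctnna1 had 6 and 3 DE peaks inside, with 1 and 0 in EpiSC. The far longer catenin genes Ctnna2, Ctnnd2 and Ctnna3, added after their values were seen, had 9, 9 and 4, where genes of like length had medians of 9.5, 8.5 and 8. For scale, the E-cadherin gene Cdh1 had 9 DE and 3 EpiSC peaks inside its 66.9 kb, and the N-cadherin gene Cdh2 had 13 DE peaks inside and none in EpiSC.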

How the data were processed

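The files used were the authors' deposited lists of peak positions (chromosome, start and end, in base pairs), 1 pooled HA list per state, and their tables with the nearest gene of each peak; the rule by which a gene was called nearest is not given in the sources used here. All values taken from these deposited files are positions and names (another kind of value than counts, with no score), and the columns marking genes as up or down were not used. The submitters' processing notes name mm10, Bowtie2 2.3.5.1, SAMtools 1.14, Picard 2.26.10, bedtools 2.30 and MACS2 2.2.6, with no role or order. Intervals of the tables were those of the merged lists for 6319 of 6319 and 42711 of 42711 peaks. The label of an EpiSC HA sample also names the DE list, and that of the tagged DE IgG sample names DE HA files; both lists were taken by their names.

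Gene positions came from RefSeq (GRCm38.p6), which gives no strand in the table used, so left and right mean lower and higher coordinates. Names matched a gene for 85.8% of EpiSC and 81.9% of DE peaks. Of like length means 0.8 to 1.25 times a gene's length; length classes were 10 equal classes of 21896 protein-coding genes. Where the count is 0, the limit is 3 counts. Counts were made in Python 3.11.15 with pandas 2.3.3 and scipy 1.17.1, and the counting was tested on simulated data. All 149 intervals of EpiSC IgG replicate 2 are also in replicate 3, so these count as 1 sample.

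Genes described one by one were every member with an EpiSC peak, the 6 cadherins and the 6 solitary protocadherins with most named DE peaks, the clustered ones with any, the densest gene of each class, family genes named in neither list, and the members with the widest peaks. Companions were given by counts, with the 5 with most named DE peaks. The members and lists were chosen with earlier results of these data known.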

Additional observations from a re-analysis of the deposited data

How the results depend on the processing

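Of 171 values from the alternatives, 24 moved, 139 stayed within 1.5 times and 8 changed by more but stayed within their wide intervals. Part of the 139 could not change, so they overstate stability. The equal minimum width, 78 bp, was already the minimum of the EpiSC list, and EpiSC counts of 0 stay 0 under a stricter rule. Another 22 values, from leaving out IgG replicates or peaks over IgG or parental peaks, could not differ, as no named peak overlapped such a peak, and say nothing about stability. Counting peaks inside gene bodies in place of named ones gave, for classical cadherins, 5 EpiSC and 59 DE peaks (25% of genes and 0.117 per 100 kb in EpiSC, 1.38 DE peaks per 100 kb), for other numbered cadherins 1 EpiSC peak (20% of genes, 0.0582 per 100 kb), for solitary protocadherins 1 EpiSC peak (8.33% of genes, 0.0263 per 100 kb) and for clustered ones 1 EpiSC and 6 DE peaks (36.2% and 62.1% of genes, which overlap; 0.194 and 1.17 per 100 kb). When only the 6319 widest DE peaks were counted, the named DE peaks fell to 2 for classical cadherins (12.5% of genes), 3 for other numbered cadherins (40.0%), 3 for solitary protocadherins (25%) and 0 for clustered ones (0%); this alternative takes fewer peaks by construction. Within 50 kb, the solitary protocadherins had 2 named EpiSC peaks (8.33% of genes). Per 100 kb of gene plus 50% of its gaps, named peaks were 0.00415 in EpiSC and 0.154 in DE for classical cadherins, and 0.0207 in EpiSC and 0.0953 in DE for solitary protocadherins. Length classes of 5, 20 or 100, all genes as background, an equal minimum width and merging within 1 kb moved none of the values by more than 1.5 times. A reciprocal overlap of 50% took the share of named EpiSC peaks that overlap a DE peak from 4 of 6 to 2 of 6 (33.3%). The 100 classes, all peaks in the space around genes, the split of the solitary genes, the companions' background and the DE to EpiSC ratio by length and the CCAAT search were chosen after seeing the data. No paired analysis was possible because each state has 1 pooled HA list, and leaving out single HA replicates was not possible either. The motif comparison over peaks was not run, since no genome sequence was used here. Depth is unknown and limits every comparison of EpiSC with DE.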

Other observations

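The promoters of Pcdh10, Pcdh17 and Pcdh8 held a common stretch under their DE peaks. The 10-base word made of ATTGG, any base and TGGC, read as ATTGGTTGGC in Pcdh10 and as ATTGGCTGGC in Pcdh17 and Pcdh8, began 50, 58 and 68 bases before the transcript start, in that order. It contains ATTGG, the reverse complement of the CCAAT box, a promoter element known to bind NF-Y. The window of Cdh18, which no DE peak overlapped, also held the 10-base word. On either strand it was in 208 of the 32851 promoter windows (0.633%), in 1.61% of windows with a DE peak and in 0.414% of those without. CCAAT on either strand was in 37.4% of all windows, in 52.1% of those with a DE peak and in 64.4% of those with an EpiSC peak. The word was picked after the 3 sequences had been read, so its presence in them supports nothing; a match is a description and not a shown site.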
